A study of Rattus norvegicus with 36 samples.

Results

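The genes that encode the heavy and light chains of muscle myosin were followed through H9C2 cells, a rat cardiac myoblast line, that had received miR-125b or one of its 3′ isomiRs. They were chosen by name as 10 genes, *Myh3*, *Myh6*, *Myh7*, *Myh8*, *Myh11*, *Myl1*, *Myl2*, *Myl3*, *Myl4* and *Mylpf*, of which 9 were found among the 24275 genes of the count tables. *Myl2* was not analysed here. In H9C2 cells exposed to hypoxia, *Myh3*, *Mylpf* and *Myl4* stood at far higher levels with the mimic control than with any of the 5 miR-125b mimics, while *Myh11*, the smooth muscle heavy chain, was not called against the mimic control with any of them.

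Cells were transfected with 25 nmol/L of a mimic control (MC), of a miR-125b mimic (miR-125b) or of a mimic with an added A (Plus A) or with A, AG or AGU removed from its 3′ end (Trim A, Trim AG and Trim AGU), and then kept in normoxia or in hypoxia. All groups are of this single line and all of them received a mimic by transfection. Poly-A RNA was sequenced from 3 libraries in each group, and counts of 33 of the 36 libraries, in 11 groups, were used, because Normoxia MC is given as a mean of its group only. The labels do not say whether the libraries of a group came from separate cultures, so the p-values measure the spread between these libraries, which may be technical. Per the methods of the study, hypoxic cells were in serum-free, low-glucose medium and normoxic cells in fresh medium, so oxygen and medium cannot be told apart. In bulk RNA, fewer cells of a type and less RNA per cell cannot be told apart either.

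Myosin is the motor of muscle, in which a pair of heavy chains, each with an ATP-splitting head and a long tail, carries an essential and a regulatory light chain at each neck. The tails bundle into the thick filament of the sarcomere, the contractile unit of striated muscle, and the heads pull on actin. Different heavy chains are made in embryonic, newborn, fast, slow, cardiac and smooth muscle, and the embryonic chain is among the first sarcomere proteins that appear when myoblasts stop dividing and fuse.

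Total counts per library ranged from 28361216 to 42672584 (median 29923694), with Hypoxia Trim AG the deepest. The myogenic factor *Myog* was at 352 CPM (the count over the library total, on the usual CPM scale) in Hypoxia MC and at 11.3 to 63.9 CPM in the means of the other hypoxia groups. *Myod1* was at 63.3 CPM in the mean of Hypoxia MC, at 19.9 to 44.4 CPM in the other hypoxia groups and at 127 to 138 CPM in normoxia. Of the 7 myoblast and skeletal muscle markers found, the summed level was 439 to 461 CPM in the libraries of Hypoxia MC, 41.7 to 116 CPM in the other hypoxia libraries and 164 to 198 CPM in normoxia. Most of the sum in Hypoxia MC was *Myog*. *Chrna1* and *Ckm* also had their highest means there, whereas *Myod1* and *Des* were higher in every normoxia group. *Myf5* and *Myf6* were at or below 0.1004 CPM in every group mean. The 7 cardiomyocyte markers summed to 10.4 to 20.0 CPM, most of it *Gata4* at group means of 9.18 to 15.1 CPM and *Tnni3* at 1.16 to 2.89 CPM. *Nkx2-5* and *Nppb* were below 1 CPM in every group mean, and *Tbx5*, *Nppa* and *Ryr2* below 0.2 CPM. The smooth muscle markers, 6 in number, summed to 5726 to 6034 CPM in Hypoxia MC and to 9584 to 16800 CPM elsewhere, and the 5 fibroblast markers to 6382 to 30410 CPM. Of the 4 endothelial markers, 1 was found (*Tek*, 0.690 to 4.46 CPM), and the 4 macrophage markers summed to 0.811 to 3.65 CPM. The part of these marker levels in the results on myosin was not tested. By distance over expressed genes, replicate 1 of Normoxia Plus A and replicates 1 and 3 of Normoxia miR-125b lay slightly nearer to the other group than to their own, and the results of these groups are given with and without replicate 1 of both where that alters them. The balance of short genes (at most 1000 bases) over long genes (at least 5000 bases), given as a median log2 difference, was 1.11 in replicate 2 of Hypoxia Trim AGU and −0.516 to 0.480 in the other libraries. The light chains are short, with 731 to 1057 bases, and the heavy chains long, with 4437 to 6693 bases, so values for Trim AGU are also given after a trend on gene length was removed.

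The mimics are shown because the comparisons turn on their last bases. The miR-125b sequence is the mature rat form in RefSeq, and the isomiRs were built from it by the changes in their names. Capitals mark the seed, bases 2 to 8, which all 5 share.
miR-125b: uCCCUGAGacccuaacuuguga
Plus A: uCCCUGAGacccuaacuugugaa
Trim A: uCCCUGAGacccuaacuugug
Trim AG: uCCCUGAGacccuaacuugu
Trim AGU: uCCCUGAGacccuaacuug

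These mimics are 22, 23, 21, 20 and 19 bases long in the order given. They differ from each other at the 3′ end only, and MC has a sequence that was not used here.

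Promoters are shown for the 4 sarcomeric chains that were lower against MC in hypoxia, *Myh3*, *Mylpf*, *Myl4* and *Myl1*. They run from 250 bases before to 50 bases after the start in RefSeq (build GRCr8), where *Mylpf* is listed as Myl11 and *Myl1* has 2 starts. The build of the count tables is not given in the sources used here, so these positions are not those of the tables. RefSeq promoters were matched for 8 of the 10 genes. Capitals mark E-boxes, written CANNTG, the letters that myogenic factors such as MyoD and myogenin can bind, and sites of MEF2, another muscle factor.
Myh3, chr10:52268935-52269234, plus strand: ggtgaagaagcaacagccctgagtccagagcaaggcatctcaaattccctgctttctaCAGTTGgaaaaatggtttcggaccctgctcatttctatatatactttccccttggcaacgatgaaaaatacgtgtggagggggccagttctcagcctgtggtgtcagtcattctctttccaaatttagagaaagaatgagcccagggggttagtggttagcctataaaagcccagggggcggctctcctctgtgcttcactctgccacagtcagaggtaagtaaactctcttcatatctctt
Mylpf, chr1:191260039-191260338, plus strand: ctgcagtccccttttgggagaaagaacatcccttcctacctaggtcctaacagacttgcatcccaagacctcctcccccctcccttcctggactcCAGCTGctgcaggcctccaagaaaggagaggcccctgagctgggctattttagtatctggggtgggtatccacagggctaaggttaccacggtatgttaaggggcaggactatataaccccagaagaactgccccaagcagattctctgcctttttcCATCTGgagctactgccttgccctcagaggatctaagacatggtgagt
Myl4, chr10:89975900-89976199, plus strand: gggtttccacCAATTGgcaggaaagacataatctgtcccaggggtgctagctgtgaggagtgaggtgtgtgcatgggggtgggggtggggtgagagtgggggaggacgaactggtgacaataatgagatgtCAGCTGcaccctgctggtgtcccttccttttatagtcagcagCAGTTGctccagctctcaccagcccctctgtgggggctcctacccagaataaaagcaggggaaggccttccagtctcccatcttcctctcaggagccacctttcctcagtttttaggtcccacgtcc
Myl1, upstream start, chr9:75907647-75907946, minus strand: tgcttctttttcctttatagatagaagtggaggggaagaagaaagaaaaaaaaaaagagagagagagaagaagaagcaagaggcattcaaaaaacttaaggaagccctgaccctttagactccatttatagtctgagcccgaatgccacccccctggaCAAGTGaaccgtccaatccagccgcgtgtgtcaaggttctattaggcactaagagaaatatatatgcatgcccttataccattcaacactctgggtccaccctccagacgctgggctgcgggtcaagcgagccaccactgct
Myl1, downstream start, chr9:75897750-75898049, minus strand: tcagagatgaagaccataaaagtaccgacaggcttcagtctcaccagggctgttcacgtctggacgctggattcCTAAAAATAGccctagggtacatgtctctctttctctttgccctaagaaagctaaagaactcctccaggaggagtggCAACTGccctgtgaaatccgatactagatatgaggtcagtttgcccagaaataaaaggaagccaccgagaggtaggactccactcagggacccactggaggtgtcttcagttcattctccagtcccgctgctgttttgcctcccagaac

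Counted on both strands, an E-box was present once in the *Myh3* promoter, 192 bases before the start, and at 2 places in *Mylpf*, 3 in *Myl4* and 1 at each start of *Myl1*. E-boxes were in 72.1% of all 33469 promoters of this length. The MEF2 site was found at the downstream start of *Myl1* and in 3.29% of all promoters. TATAAA was found 30 bases before the *Myh3* start, at 1 place in *Myl4* and at 2 places at the upstream start of *Myl1*, and 14.2% of all promoters hold it. These matches are descriptions of letters in a window.

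Per length, the regulatory light chain was the highest of the members in Hypoxia MC. There the FPKM of *Mylpf*, the regulatory light chain of fast skeletal muscle, was 272 ± 7.58 (SD, n = 3). FPKM are counts scaled by the authors for gene length and library, and their scale per library was not the count total used for CPM. *Myl4*, the essential light chain of embryonic muscle and of the atrium, was at 47.5 ± 2.66 FPKM and *Myh3*, the embryonic heavy chain, at 38.7 ± 3.51 FPKM. *Myl1*, the essential light chain of fast muscle, was at 2.52 ± 0.796 FPKM and *Myh11* at 1.30 ± 0.105 FPKM. *Myh6*, the alpha heavy chain of the heart, was at 0.0594 ± 0.0214 FPKM. In FPKM, *Mylpf* was thus 7.03 times *Myh3* in Hypoxia MC, and between 8.05 and 17.2 times in the other groups. This ratio sets a gene of 731 bases against one of 6035 bases. It was highest in Hypoxia Trim AGU (17.2) and Hypoxia Trim A (16.9), whose libraries reach short-over-long balances of 1.11 and 0.447. The part of that balance in the ratio was not tested.

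*Myh3* (10:53621375-53645194, plus strand, in the coordinates of the tables) was at 244, 228 and 276 CPM in the libraries of Hypoxia MC. In the next highest group, Hypoxia Plus A, it was at 17.9, 17.8 and 16.2 CPM, and the lowest mean was 7.01 ± 2.85 CPM (SD, n = 3) in Normoxia miR-125b. The libraries of Hypoxia MC were all above every other library. From Hypoxia Plus A downward each group overlapped with the next in the order of means, so those neighbours did not differ beyond their spread.

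*Mylpf* (1:198655742-198658583, plus strand) was at 217, 205 and 214 CPM in Hypoxia MC. Hypoxia Trim AGU came next with 30.2, 36.1 and 32.7 CPM, apart from the libraries of all lower groups. Hypoxia miR-125b followed with 16.5, 20.3 and 21.4 CPM, and the lowest mean was 9.35 ± 0.325 CPM in Normoxia Plus A. Below Hypoxia Trim AGU each group overlapped with its neighbour.

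*Myl4* (10:92628356-92638100, plus strand) was at 38.5, 39.3 and 43.1 CPM in Hypoxia MC and at 1.77 to 5.38 CPM in the other libraries. *Myl1* (9:73937823-73958480, minus strand) was at 3.04, 1.85 and 3.64 CPM in Hypoxia MC, from 92, 55 and 106 counts. It was at 0.250, 1.38 and 1.15 CPM in Hypoxia Trim AGU and at most 0.371 CPM elsewhere. For both light chains the libraries of Hypoxia MC again stood above all others.

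**Figure D1:**
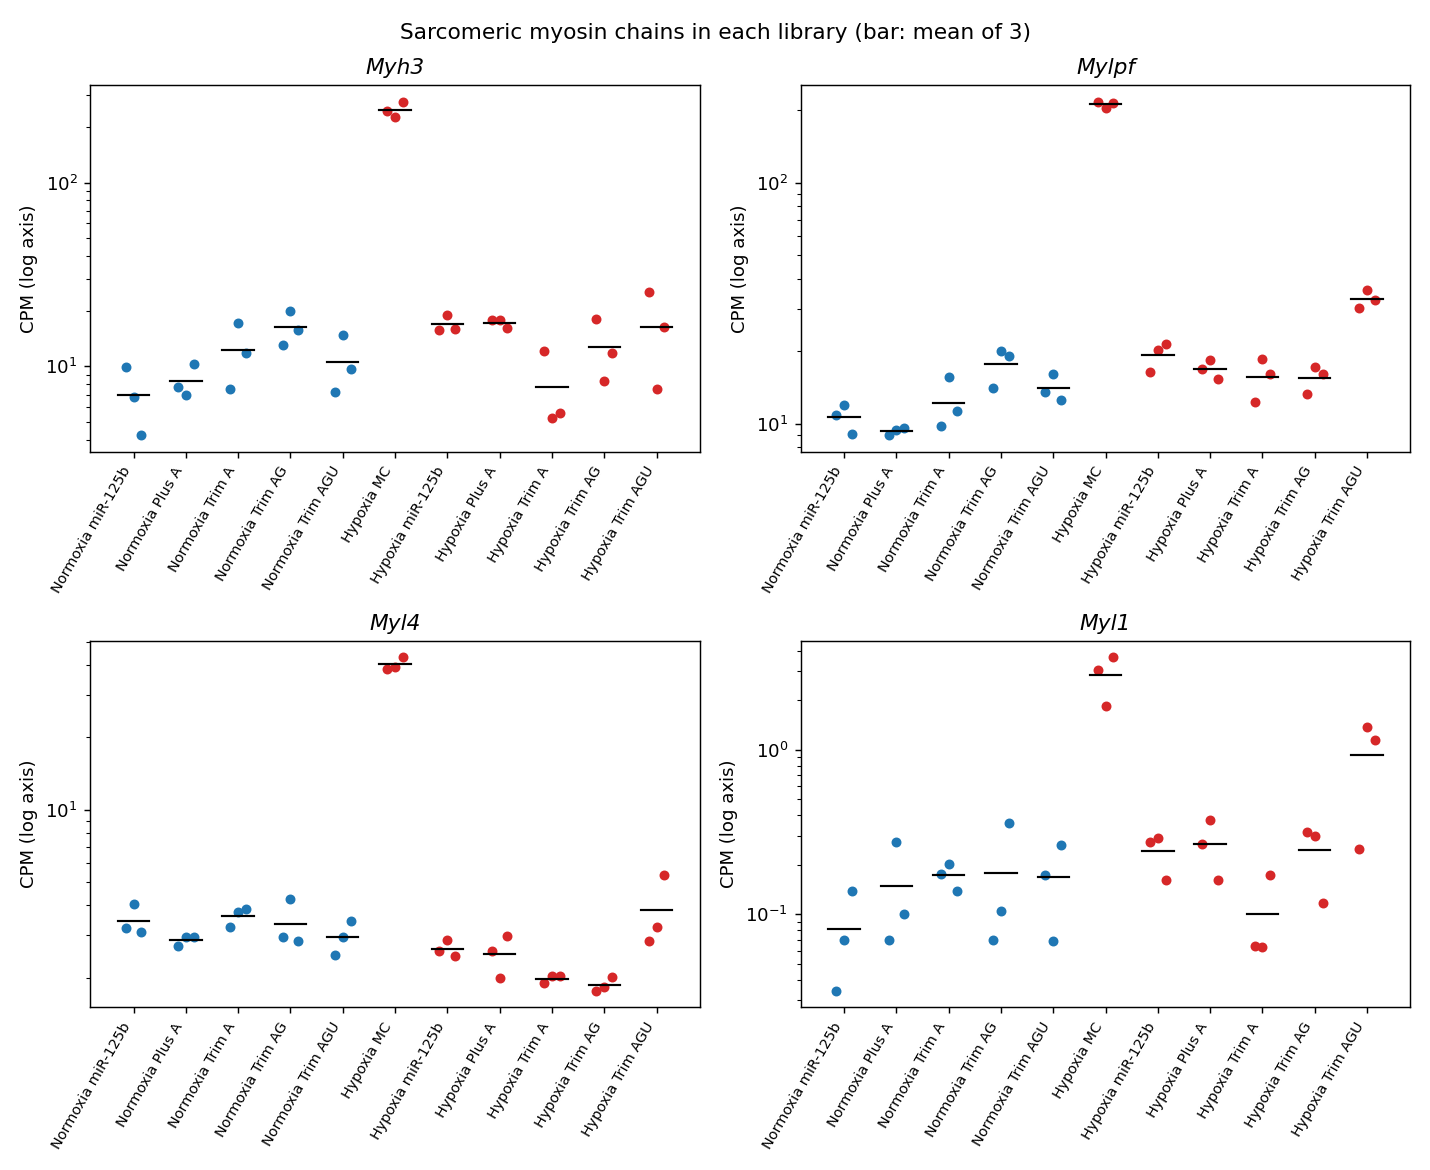
Level of *Myh3*, *Mylpf*, *Myl4* and *Myl1* in CPM (log axis) in each library, by group, with normoxia in blue and hypoxia in red. Points are libraries and bars are means of 3; the libraries of Hypoxia MC lie above all others in each panel, for example at 205 to 217 CPM for *Mylpf*.

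The first question was which of these genes each mimic changed against MC in hypoxia. Calls needed a fold of at least 1.5 and, in edgeR's quasi-likelihood test, a p below 0.05 after Benjamini-Hochberg adjustment over all genes tested. *Myh3*, *Mylpf* and *Myl4* were lower with all 5 mimics, and *Myl1* with 4 of them. Of the 6 chains tested, 4 were lower with miR-125b, where 12.5% of all genes tested were called lower, 4 under Plus A (14.4%), 4 under Trim A (15.7%), 4 under Trim AG (20.2%) and 3 under Trim AGU (12.4%). With miR-125b 1 chain, *Myh6*, was called higher, as were 9.43% of all genes. In that comparison *Myh6* passed the filter on low counts only through the libraries of Hypoxia miR-125b. The median log2 fold change of the 6 chains was −1.99 with Trim AGU, −3.58 with Trim AG, −4.00 with Trim A, −3.50 with Plus A and −3.45 with miR-125b, and the median of all genes was between −0.0158 and 0.00325. In each of these 5 comparisons *Myl1* passed the filter on low counts only through the MC libraries. Without it 3 of 5 chains were lower with each mimic, and the median was −3.41, −3.63, −3.71, −3.70 and −2.53 in the order miR-125b to Trim AGU. These 5 comparisons share the 3 libraries of Hypoxia MC.

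*Myh3* fell by 3.84 ± 0.08 (SE) on the log2 scale with miR-125b, a fold of 14.3 (adjusted p = 9.49e-11), and by 3.83 ± 0.08 with Plus A. With Trim A the log2 fold change was −4.98 ± 0.30, a fold of 31.6 (adjusted p = 1.23e-05). It was −4.22 ± 0.24 with Trim AG and −3.81 ± 0.39 with Trim AGU (adjusted p = 0.00139). The Trim A libraries themselves were spread, at 12.2, 5.26 and 5.59 CPM, and those of Trim AGU were at 25.5, 7.50 and 16.4 CPM. Every one of these values lay below the lowest MC library.

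*Mylpf* had log2 fold changes of −3.41 ± 0.07 with miR-125b, −3.63 ± 0.07 with Plus A, −3.71 ± 0.15 with Trim A and −3.70 ± 0.11 under Trim AG. With Trim AGU it fell by 2.53 ± 0.14, a fold of 5.79 (adjusted p = 0.000394). For *Myl4* the log2 fold change was −3.90 ± 0.08 with miR-125b, −3.98 ± 0.12 with Plus A, −4.29 ± 0.10 with Trim A, −4.36 ± 0.10 under Trim AG and −3.25 ± 0.25 under Trim AGU. Without the length trend the log2 fold changes with Trim AGU were −2.81 for *Mylpf* and −3.51 for both *Myl4* and *Myh3*.

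*Myl1* had 55 to 106 counts in the MC libraries and 2 to 13 in those of miR-125b, Plus A, Trim A and Trim AG in hypoxia. It could be tested in 2 of the 13 comparisons without MC, so its calls against MC rest on the group in which it is high. It fell by 3.49 ± 0.34 on the log2 scale with miR-125b, and its log2 fold change was −3.38 ± 0.37 with Plus A, −4.69 ± 0.44 with Trim A and −3.46 ± 0.40 under Trim AG. With Trim AGU its log2 fold change was −1.44 ± 0.60 (adjusted p = 0.11), and it was not called. The libraries of that group held 8, 44 and 39 counts, and the balance of short over long genes in the same libraries was 0.0798, 1.11 and 0.439. Its log2 fold change without replicate 2 of Hypoxia Trim AGU was −1.92, which was called, and without the length trend −1.71 (adjusted p = 0.0507).

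*Myh6* (15:33605654-33629699, minus strand) was at 0.894, 0.774 and 0.646 CPM in Hypoxia miR-125b, from 26, 24 and 20 counts, and at 0.298, 0.537 and 0.309 CPM in Hypoxia MC, from 9, 16 and 9 counts. The groups did not overlap, and the log2 fold change was 1.04 ± 0.36 (adjusted p = 0.0275). *Myh6* passed the filter on low counts here only through the libraries of Hypoxia miR-125b. This call thus rests on the group in which it is high. The call was lost in 4 of the 6 fits that left out a library, those without replicate 1 or 3 of MC or replicate 1 or 2 of miR-125b, with log2 fold changes of 0.89 to 1.04, and in DESeq2 (1.05). With the 4 isomiRs the log2 fold change was 0.11 to 0.47 and was not called.

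*Myh11* (10:764421-859184, plus strand) was at 8.56, 9.17 and 10.1 CPM in Hypoxia MC and at 8.59, 8.97 and 8.59 CPM in Hypoxia miR-125b. Its log2 fold change was −0.05 ± 0.11 (95% interval −0.29 to 0.18). With Trim AG it was 0.42 ± 0.13 (adjusted p = 0.0197), below the fold threshold, and 0.64 without the length trend, which was called. With Trim AGU it was 0.04 ± 0.17, and 0.44 without the length trend (adjusted p = 0.0651), and neither was called.

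**Figure D2:**
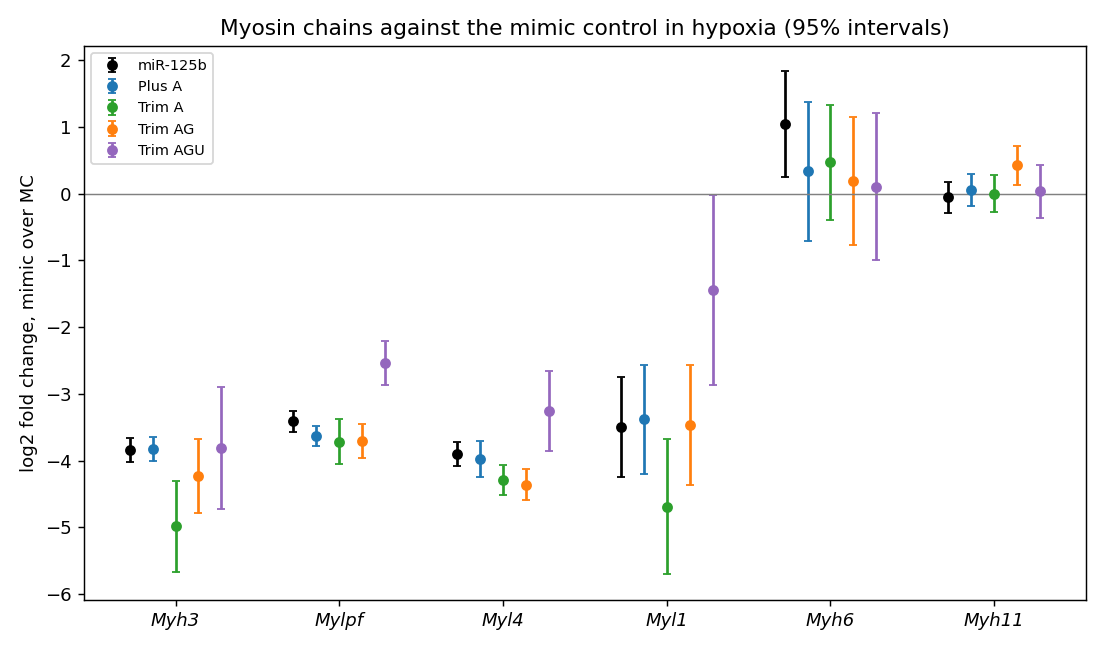
Log2 fold change of each mimic over MC in hypoxia for the 6 chains tested, with 95% intervals from edgeR, coloured by mimic. *Myh3*, *Mylpf* and *Myl4* lie between −2.53 and −4.98 with every mimic, and *Myh11* lies between −0.05 and 0.42.

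The remaining chains were too low to be tested. *Myh8*, the heavy chain of perinatal muscle, had 23 counts in all libraries, of which 1, 6 and 8 were in Hypoxia MC and 2, 3 and 0 in those of Hypoxia miR-125b. The hypoxia groups of the 4 isomiRs held 0 counts each, and against a floor of 3 counts over the group *Myh8* was at least 5.07-fold higher in Hypoxia MC than in Plus A, 5.45-fold than in Trim A, 6.95-fold than in Trim AG and 5.49-fold than in Trim AGU. *Myh7*, the beta heavy chain of heart and slow muscle, had 81 counts, of which 13 were in Hypoxia MC, 27 in Normoxia Trim AG and 16 in Normoxia Trim AGU. In the hypoxia groups with a miR-125b mimic it had 0 to 5 counts. *Myl3*, the essential light chain of ventricle and slow muscle, had 6 counts, all in normoxia, and the 0 counts of the hypoxia libraries together allow up to 0.00509 CPM. These limits cover the counting error of the groups with 0 counts only, not that of the MC counts or the spread between libraries.

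In normoxia, MC could be set beside Plus A only as means that the authors gave for each group, with no spread and no test. For *Myh3* this mean was 1486 in MC and 248 in Plus A, a ratio of 5.99, and for *Mylpf* 1703 and 278, a ratio of 6.13. The ratio was 3.85 for *Myl4* (329.5 and 85.57), 7.18 for *Myl1* (31.79 and 4.426) and 1.47 for *Myh11* (494 and 336.4). *Myh7* was at 5.849 and 0.344. In each of these pairs MC was the higher.

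The second question was whether an isomiR differed from miR-125b at the same dose and the same oxygen level. In hypoxia 0 of 5 chains tested were called with Plus A (2.03% of all genes were called), 0 of 5 under Trim A (0.873%), 0 of 6 under Trim AG (19.3%) and 1 of 5 under Trim AGU (3.75%). At an unadjusted p below 0.05 the numbers with Plus A, Trim A and Trim AG were 0, 2 and 3, where 31.2%, 23.5% and 50.5% of all genes passed. DESeq2 called 0, 1 and 0 of the chains and 1.73%, 2.01% and 19.3% of all genes. The chain called was *Mylpf*, which was higher with Trim AGU than with miR-125b by 0.87 ± 0.17 on the log2 scale, a fold of 1.83 (adjusted p = 0.0411). Its values were those given above, 30.2 to 36.1 CPM against 16.5 to 21.4 CPM, with no overlap. Without the length trend the log2 fold change was 0.64 (adjusted p = 0.035). Without any 1 of the miR-125b libraries, or without replicate 3 of Trim AGU, it was 0.79 to 0.97 and not called.

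*Myh3* with Trim A was 1.14 ± 0.30 lower than with miR-125b on the log2 scale, a fold of 2.21, with groups that did not overlap, and was not called (adjusted p = 0.0873). Without replicate 1 of Hypoxia Trim A, the highest of its libraries, the log2 fold change was −1.63 and was called, as it was in DESeq2 (−1.14) and without the length trend (−1.10). The balance of short over long genes was −0.121, 0.447 and 0.368 in these libraries, in the order of their *Myh3* values above. With Trim AG the log2 fold changes of *Myh3* (−0.40) and *Myh6* (−0.86) were called only without replicate 1 of Hypoxia Trim AG, where they were −0.72 and −1.15. With Plus A, which adds 1 base, the log2 difference of *Myh3* from miR-125b was 0.01 (95% interval −0.19 to 0.21) and that of *Mylpf* −0.22 (−0.46 to 0.02). For *Myh11* it was 0.11 (−0.10 to 0.32). *Myh11* with Trim AG was 0.47 ± 0.12 higher on the log2 scale than with miR-125b (adjusted p = 0.0138), below the fold threshold.

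In normoxia 0 of 4 chains were called with Plus A, where 0% of all genes were called, and 0 of 4 with Trim A (0.414%). Trim AG had 3 of 4 higher (13.9% of all genes were called) and Trim AGU 1 of 4 (11.4%). At an unadjusted p below 0.05 there were 0 of the chains with Plus A and 2 with Trim A, beside 2.73% and 18.7% of all genes, and DESeq2 called 0 in both, beside 1 and 127 genes.

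*Myh11* was at 24.8, 32.6 and 28.4 CPM in Normoxia Trim AG and at 22.5, 24.9 and 22.4 CPM in Normoxia Trim AGU. In Normoxia miR-125b it was at 11.9, 10.9 and 10.1 CPM. Neither Trim group overlapped with miR-125b, and the log2 fold changes were 1.34 ± 0.12 with Trim AG (a fold of 2.53, adjusted p = 4.26e-05) and 1.08 ± 0.10 with Trim AGU (2.11, adjusted p = 0.00023). With Trim A, at 13.8, 17.3 and 15.8 CPM, it was 0.52 ± 0.12 (adjusted p = 0.0578) and not called. The log2 fold change with Trim AGU was 0.96 without the length trend, which was called. Of the other smooth muscle markers, *Cnn1*, which encodes calponin, and *Des*, desmin, were called higher with Trim AG, by 1.04 ± 0.07 and 0.70 ± 0.15 on the log2 scale. *Acta2* (0.37 ± 0.03), *Tagln* (0.21 ± 0.05) and *Smtn*, which has 2 identifiers (0.50 ± 0.05 and 0.44 ± 0.35), were not called. *Acta2* (adjusted p = 5.8e-05), *Tagln* (0.00703) and the first *Smtn* identifier (8.88e-05) missed only the fold threshold, and the second *Smtn* identifier had an adjusted p of 0.348. With Trim AGU the log2 fold change was 0.55 ± 0.10 for *Cnn1*, 0.37 ± 0.17 for *Des*, 0.09 ± 0.07 for *Acta2*, −0.0047 ± 0.0873 for *Tagln* and 0.47 ± 0.08 and 0.63 ± 0.35 for *Smtn*, and no such call was made. Of these, *Cnn1* (adjusted p = 0.00357) and the first *Smtn* identifier (0.00221) missed only the fold threshold. The part of these markers in the level of *Myh11* was not tested.

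*Myh3* was higher with Trim AG than with miR-125b in normoxia by 1.17 ± 0.27 on the log2 scale (adjusted p = 0.00843), with 13.1, 20.0 and 15.8 CPM against 9.93, 6.86 and 4.24 CPM. *Mylpf* was higher by 0.70 ± 0.15 (adjusted p = 0.00646), with 14.1, 20.1 and 19.2 CPM against 10.9, 11.9 and 9.07 CPM. *Myl4* had a log2 fold change of −0.09 ± 0.20 (95% interval −0.55 to 0.38) and was not called. The difference between the chains was not tested.

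**Figure D3:**
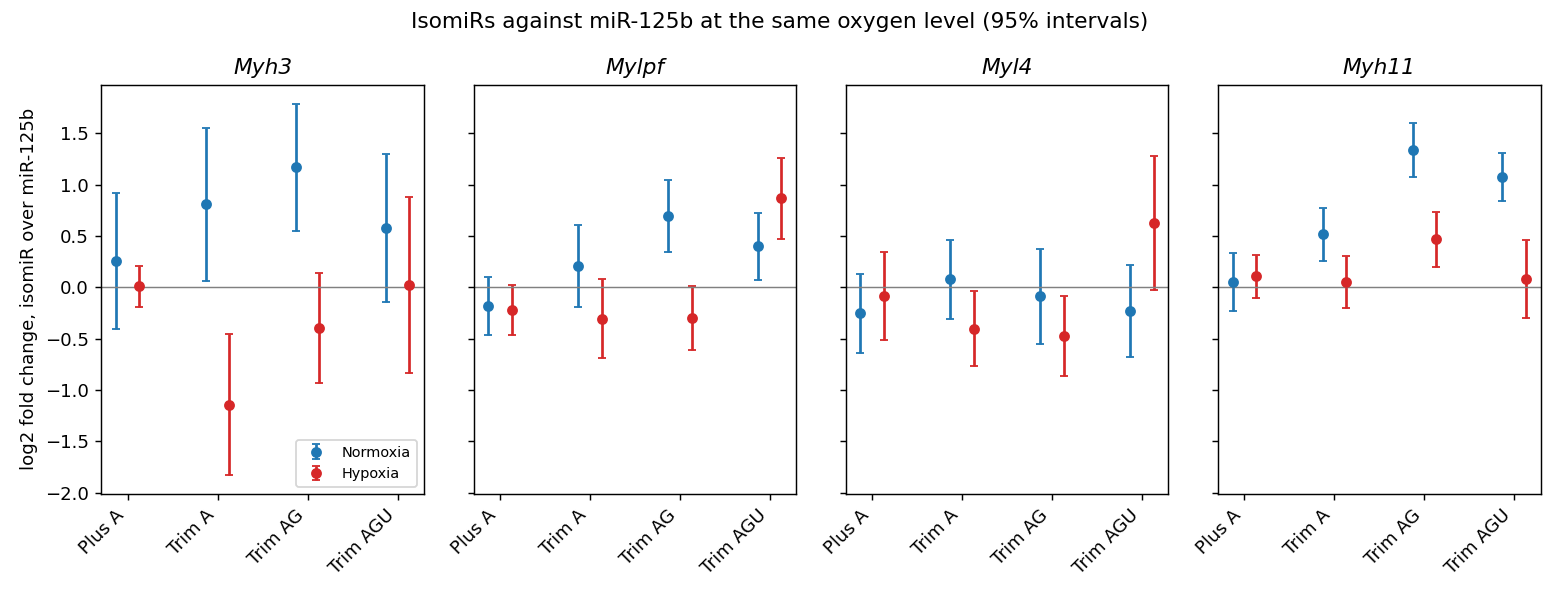
Log2 fold change of each isomiR over miR-125b in normoxia (blue) and hypoxia (red) for *Myh3*, *Mylpf*, *Myl4* and *Myh11*, with 95% intervals. With Trim AG the normoxia values of *Myh3*, *Mylpf* and *Myh11* are 1.17, 0.70 and 1.34 and the hypoxia values −0.40, −0.30 and 0.47.

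The third question was how these genes differed between hypoxia and normoxia under each mimic. Of 5 chains tested with miR-125b, 3 were called (20.9% of all genes), of 4 under Plus A 2 (22.8%), of 5 under Trim A 2 (26.5%), of 6 under Trim AG 2 (32.8%) and of 5 under Trim AGU 2 (27%). The share of chains called with Trim AG was near that of all genes. The genes called were not the same under each mimic, which is no test of a difference between mimics. *Mylpf* and *Myh3* were called higher in hypoxia with miR-125b and Plus A. So was *Myh6* with miR-125b, where it passed the filter on low counts only through the hypoxia libraries. *Myl4* and *Myh11* were called lower with Trim A and Trim AG, and with Trim AGU *Mylpf* was higher and *Myh11* lower.

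*Mylpf* was higher in hypoxia by 0.78 ± 0.13 on the log2 scale with miR-125b, by 0.74 ± 0.10 with Plus A and by 1.28 ± 0.18 with Trim AGU (adjusted p = 0.0028), the last being 0.89 without the length trend. *Myh3* was higher by 1.19 ± 0.25 with miR-125b and by 0.94 ± 0.15 with Plus A. Its log2 fold change was 0.65 ± 0.41 with Trim AGU, −0.35 ± 0.25 with Trim AG and −0.75 ± 0.37 with Trim A, none of which was called. That with Trim AGU was called without replicate 2 of Hypoxia Trim AGU (0.96) and without the length trend (1.02), and those with Trim A and Trim AG without replicate 1 of the hypoxia group (−1.24 and −0.67). *Myh6* was higher in hypoxia with miR-125b by 1.32 ± 0.35 (adjusted p = 0.0112). Its 10, 9 and 6 counts in Normoxia miR-125b did not reach the filter on low counts, so this call rests on the group in which it is high. With Trim A its log2 fold change was 1.14 ± 0.42 (adjusted p = 0.0509), which was not called, and 1.34 without the length trend (adjusted p = 0.0275), which was.

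*Myl4* was lower in hypoxia with Trim A, at 1.90, 2.03 and 2.03 CPM against 3.24, 3.76 and 3.86 CPM, and fell by 0.94 ± 0.17 on the log2 scale (adjusted p = 0.00218). With Trim AG it fell by 0.83 ± 0.21 (adjusted p = 0.00801). Under miR-125b it had a value of −0.47 ± 0.17 on the log2 scale (adjusted p = 0.0445), below the fold threshold, and under Plus A −0.31 ± 0.20 (adjusted p = 0.24). *Myh11* fell by 0.87 ± 0.12 with Trim A, by 1.26 ± 0.13 with Trim AG and by 1.39 ± 0.17 with Trim AGU. Without the length trend these log2 fold changes were −0.66, −1.03 and −0.93 in the same order, each called. With miR-125b and Plus A the log2 fold changes of *Myh11* were −0.41 ± 0.11 (adjusted p = 0.00956) and −0.36 ± 0.12 (adjusted p = 0.0271), below the fold threshold. The libraries of *Myh11* did not overlap between hypoxia and normoxia under any of the 5 mimics. The share of all genes without overlap was not analysed here. In these comparisons 43.7% to 60.1% of all genes had an unadjusted p below 0.05 in edgeR's test. The hypoxia levels of *Myh11* ran from 6.75 to 12.95 CPM over all mimics and MC.

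**Figure D4:**
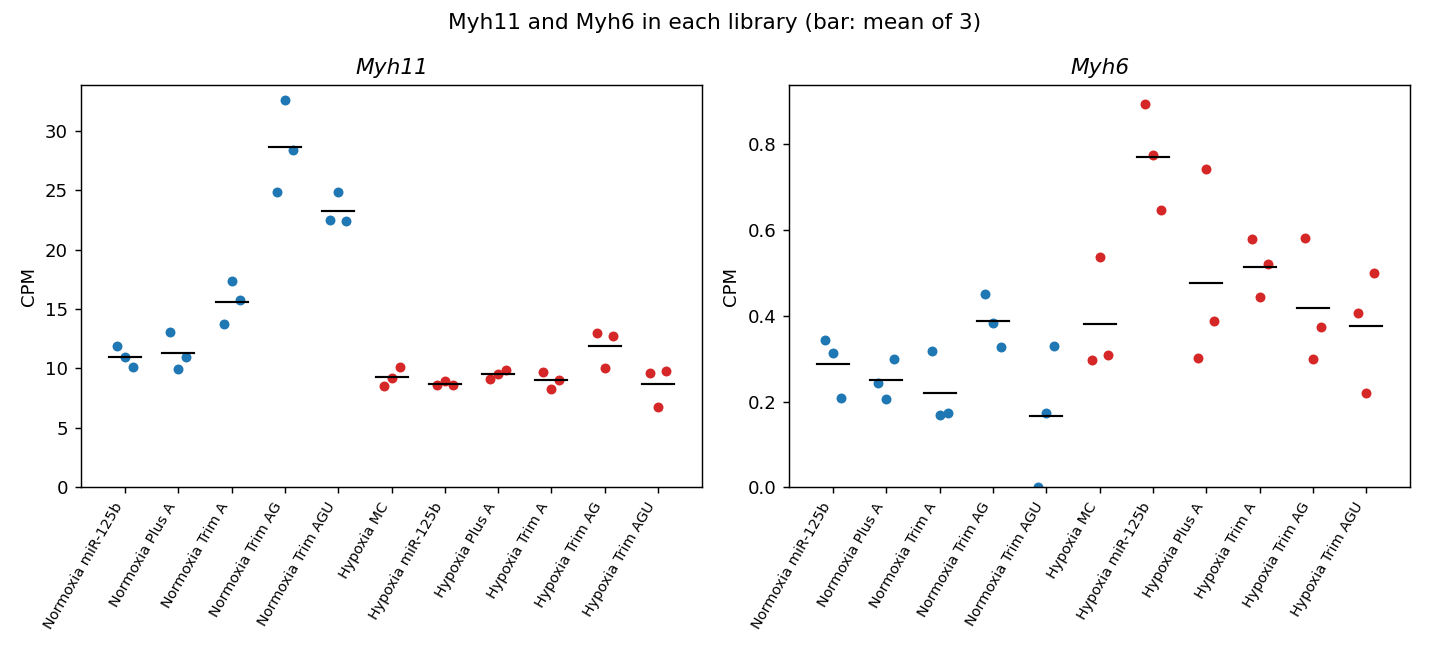
Level of *Myh11* and *Myh6* in CPM in each library, by group, with normoxia in blue, hypoxia in red and bars at the mean of 3. *Myh11* is highest in Normoxia Trim AG, at 24.8 to 32.6 CPM, and *Myh6* has its highest mean, 0.771 CPM, in Hypoxia miR-125b.

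The difference of an isomiR from miR-125b was then tested for a dependence on oxygen, as an interaction on the 12 libraries of 4 groups. All the interactions share the same miR-125b libraries. No chain of 5 was called for Plus A (0.0193% of all genes were called) or Trim A (0.605%), 3 were called for Trim AG (11.3%) and 1 for Trim AGU (0.966%). At an unadjusted p below 0.05 there were 0 for Plus A and 2 for Trim A, beside 16.1% and 22.4% of all genes. DESeq2 called 0 and 1, beside 0.469% and 2.40% of all genes. For Trim AG the log2 difference between hypoxia and normoxia was −1.58 ± 0.40 for *Myh3* (adjusted p = 0.014), −1.01 ± 0.22 for *Mylpf* (adjusted p = 0.00699) and −0.88 ± 0.17 for *Myh11* (adjusted p = 0.00314). For Trim AGU it was −0.96 ± 0.18 for *Myh11* (adjusted p = 0.0281). That call was lost without any 1 library of miR-125b in either oxygen group or of Normoxia Trim AGU (−1.06 to −0.90 over all 12 fits that left out a library), and without the length trend (−0.61, adjusted p = 0.0951). *Myh3* with Trim A had an interaction of −1.94 ± 0.50 (adjusted p = 0.0688), which was called by DESeq2 (−1.94), without the filter on low counts (−1.94), without the length trend (−1.85) and without replicate 1 of Hypoxia Trim A (−2.42). *Myl4* with Trim AGU had 0.89 ± 0.34 (adjusted p = 0.174), called without replicate 1 of Hypoxia Trim AGU (1.09), and *Myh6* with Trim AG −1.24 ± 0.50 (adjusted p = 0.0931), called without replicate 1 of Hypoxia Trim AG (−1.54). The interactions of *Myl4* with Trim A (−0.47 ± 0.23, adjusted p = 0.236) and Trim AG (−0.40 ± 0.27, adjusted p = 0.302) were not called. Nor was that of *Myh11* with Trim A (−0.46 ± 0.16, adjusted p = 0.12).

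The patterns of the members over the 11 groups were compared as centred group means of log2 CPM among 12310 other named genes, by the root mean square (RMS) difference. These points share the same libraries and depth, and the values are descriptions. Nearest to *Myh3* were *Actc1*, cardiac alpha-actin (0.375 log2 units), *Tnni1*, slow skeletal troponin I (0.486), and *F13a1*, a subunit of coagulation factor XIII (0.489). Nearest to *Mylpf* were *Tnni1* (0.202), *F13a1* (0.321) and *Eif4e3*, a cap-binding protein (0.436). *Myl4* was nearest to *Hrc*, a calcium-binding protein of the sarcoplasmic reticulum (0.341), *Tnni2*, fast troponin I (0.402), and *Csrp3*, muscle LIM protein (0.423). Among the members, *Myh3* and *Mylpf* were 0.415 apart, *Myl4* and *Mylpf* 0.502 and *Myh3* and *Myl4* 0.543. *Myh11* was 1.27 to 1.53 from these 3 and was nearest to *Rad21*, a cohesin subunit (0.125), *Tube1*, epsilon tubulin (0.139), and *Cntrob*, centrobin (0.139).

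The other genes of the myosin system, 36 on a list of heavy and light chains, light chain kinases and phosphatase subunits and thick filament proteins, were placed beside the members. Of these 31 were found and 29 were tested somewhere. Against MC in hypoxia 14 of 28 tested were lower and 4 higher with miR-125b, 15 of 29 and 3 under Plus A, 13 of 29 and 2 under Trim A, 15 of 28 and 5 under Trim AG, and 14 of 28 and 2 under Trim AGU. Among all genes 12.5%, 14.4%, 15.7%, 20.2% and 12.4% were lower and 9.43%, 10.5%, 12.4%, 17.0% and 11.4% higher in the same order. The median log2 fold change of the listed genes was −0.496 to −1.03. Their counts of lower genes include *Myom3* with each mimic, which was tested against MC only, as given below.

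Of the 12 thick filament and assembly genes tested, 8 were lower and 2 higher with miR-125b, 9 lower and 1 higher with Plus A, and 8, 9 and 8 lower and none higher with Trim A, Trim AG and Trim AGU. Each count of lower genes includes *Myom3*, which was tested only in the 5 comparisons with MC. It was at 0.640 CPM in the mean of Hypoxia MC and at most 0.166 CPM in the other group means. Its calls thus rest on the group in which it is high. The 2 called higher with miR-125b were *Mybpc2* and *Mybpc3*, singled out here after their values were seen. The 4 described next are those of this subgroup called in the most comparisons. *Unc45b*, a muscle chaperone that folds the myosin head, had a log2 fold change of −3.31 ± 0.17 with miR-125b and −4.39 ± 0.18 with Trim AG. It was −3.19 with Plus A, −4.40 with Trim A and −3.92 with Trim AGU. With miR-125b and Trim AG, *Mybph*, myosin binding protein H, had −2.65 ± 0.05 and −4.38 ± 0.13, and *Smyd1*, a methyltransferase of myosin assembly, −2.46 ± 0.27 and −4.13 ± 0.22. With Plus A, Trim A and Trim AGU, *Mybph* had −2.29, −3.26 and −3.43, and *Smyd1* −2.20, −2.86 and −2.82. *Myom1*, myomesin of the M-band, fell by 1.30 ± 0.11 with miR-125b. These 4 were called lower with each of the 5 mimics, but those comparisons are among the ones used to pick them.

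*Myh1*, an adult fast heavy chain, was at 108 CPM in the mean of Hypoxia MC and at 16.1 to 23.6 CPM with the mimics in hypoxia, a fall of 2.16 ± 0.06 on the log2 scale with miR-125b. In normoxia it was at 66.3 to 173 CPM with the same mimics, and it was lower in hypoxia by 1.64 ± 0.07 with miR-125b up to 3.02 ± 0.21 with Trim AGU on the log2 scale. *Myh3* moved the other way with miR-125b and Plus A, as given above. *Myh15* fell by 2.88 ± 0.18 on the log2 scale with miR-125b against MC, and *Myh7b* was higher by 0.62 ± 0.10.

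Of the light chains outside the members, *Myl6b* fell by 1.09 ± 0.05 and *Myl12b* by 0.88 ± 0.04 on the log2 scale with miR-125b against MC in hypoxia, and both were called with all 5 mimics. *Myl9*, the regulatory light chain of smooth muscle and nonmuscle cells, was higher with Trim A by 0.81 ± 0.10, with Trim AG by 1.45 ± 0.09 and with Trim AGU by 1.21 ± 0.19. With Plus A the *Myl9* value was 0.50 ± 0.05 (adjusted p = 1.06e-05), below the fold threshold. Its mean was 1224 CPM in Hypoxia miR-125b, which was not called, and 867 CPM in Hypoxia MC. *Mylk*, the kinase that phosphorylates this light chain, was higher with Trim AG by 1.07 ± 0.08 and with Trim AGU by 0.63 ± 0.10. *Ppp1cb*, a catalytic subunit of protein phosphatase 1 that myosin phosphatase uses, was higher by 0.96 ± 0.03 with miR-125b and by 1.24 ± 0.09 with Trim AG. It was also called with Plus A (1.25 ± 0.05) and Trim A (1.22 ± 0.08), and was 0.48 ± 0.13 with Trim AGU, below the fold threshold. The subunit *Ppp1r12b* fell by 0.65 ± 0.07 with miR-125b and by 0.86 ± 0.11 with Trim AG. Its log2 fold changes with Plus A, Trim A and Trim AGU were −0.62, −0.85 and −1.07. Of the nonmuscle heavy chains, *Myh9* was called with Trim AG (1.06 ± 0.39, adjusted p = 0.042), *Myh14* was lower with Trim AG and Trim AGU, and *Myh10* had log2 fold changes of −0.48 to −0.15, none called.

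Against miR-125b in hypoxia, 4 of the 27 listed genes tested were higher and 10 lower with Trim AG, and 1 of 27 was higher and 2 lower with Trim AGU. The shares over all genes tested were 7.85% and 11.5% for Trim AG and 1.83% and 1.93% for Trim AGU. In normoxia 6 of 27 were higher and none lower with Trim AG, and 3 of 26 were higher and 1 lower with Trim AGU, beside 7.58% and 6.36% of all genes with Trim AG and 6.22% and 5.16% with Trim AGU. In these normoxia comparisons *Unc45b* was higher by 1.58 ± 0.25 with Trim AG and by 1.21 ± 0.31 with Trim AGU on the log2 scale, and *Myh1* by 0.87 ± 0.07 and 1.31 ± 0.09. Between hypoxia and normoxia, 6 were higher and 5 lower of 27 with miR-125b (9.34% and 11.5% of all genes), 3 and 6 of 28 under Plus A (10% and 12.8%), 2 and 10 of 27 under Trim A (12% and 14.5%), 4 and 12 of 27 under Trim AG (15% and 17.8%) and 2 and 6 of 26 under Trim AGU (13.6% and 13.4%). *Smyd1* was lower in hypoxia under every mimic, with log2 fold changes of −2.63 with miR-125b to −4.14 with Trim AG. *Myh7b*, another heavy chain of striated muscle, was higher under every mimic, by 0.69 with Trim AG to 1.56 with Trim AGU on the log2 scale.

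**Figure D5:**
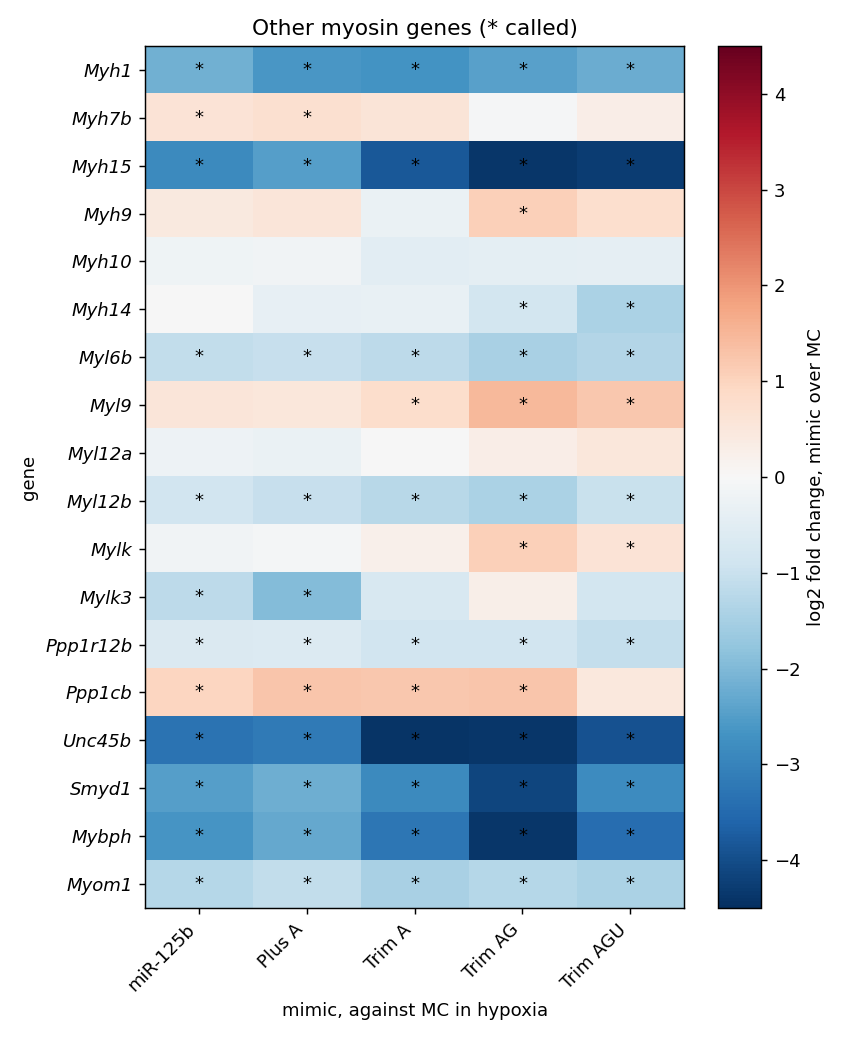
Log2 fold change (colour) of each mimic over MC in hypoxia for the named genes of the myosin system that are not members, with an asterisk where a gene was called. *Unc45b*, *Smyd1*, *Mybph*, *Myom1*, *Myh1*, *Myh15*, *Myl6b*, *Myl12b* and *Ppp1r12b* were called lower with each mimic. The genes shown were picked by their number of calls, the comparisons shown included.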

How the data were processed

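The RNA of 36 libraries of H9C2 cells, 3 in each of 12 groups, was sequenced as non-stranded poly-A libraries. The authors deposited tables that hold, per gene and library, a read count, which was tested here, and an FPKM value, used to compare levels between genes. For Normoxia MC the authors gave a mean signal per group. Per the labels' processing notes HISAT2 and StringTie were used, in no stated role, and the build is not given in the sources used here. Columns of the authors' own fold changes and p-values were not used. Because reads carry no strand, overlapping genes on opposite strands cannot be told apart, and near-identical heavy chains, such as *Myh6* and *Myh7*, are uncertain where reads match both.

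CPM is the count over the library total, 28361216 to 42672584. Each pair of groups was fitted on its own libraries with edgeR 4.0.16 (R 4.3.3), with TMM normalization, the filterByExpr filter, the quasi-likelihood test and Benjamini-Hochberg adjustment over all genes tested, and was called at 0.05 and a fold of 1.5. There were 18 such comparisons and 4 interactions. SE was taken as the size of the log2 change divided by the root of F. Log2 CPM for patterns used a pseudocount of 0.5. The fits were tested on simulated data. Alternatives were DESeq2 1.42.0, other size factors, no filter, 1 fit of all libraries, the replicate number as a block, other fold thresholds and each library left out. A further alternative, in which each library's lowess trend (span 0.3) against gene length was taken out, was added after the data were seen. Python 3.11.15 with numpy 2.4.6 and pandas 2.3.3 served for the tables, and matplotlib 3.10.9 for plots.

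The members and lists were chosen with earlier results of these data known. Named genes are the 10 members, for each member with a mean of at least 1 CPM its 3 nearest genes in pattern, up to 4 other myosin genes of each subgroup called in the most comparisons, and cell type markers. Replicates of a group differed by more than sampling noise, the mean chi-square over genes being 4.75 to 219, and all were kept. Tests against Normoxia MC were not analysed here, nor were protein sequences.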

Additional observations from a re-analysis of the deposited data

Results flagged for a closer look

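The interaction tests whether the difference of an isomiR from miR-125b differs between hypoxia and normoxia. It was called for 3 of 5 chains with Trim AG. With Trim AGU it was called for 1 of 5. Among all genes 11.3% were called for Trim AG and 0.966% for Trim AGU. The log2 difference from miR-125b, hypoxia minus normoxia, was −1.58 for *Myh3*, −1.01 for *Mylpf* and −0.88 for *Myh11* with Trim AG, and −0.96 for *Myh11* with Trim AGU. From normoxia to hypoxia, *Myh3* and *Mylpf* changed by 1.19 and 0.78 on the log2 scale with miR-125b, both called. With Trim AG they changed by −0.35 and −0.19, neither called. The 3 interactions with Trim AG were called in each of the 12 fits that left out a library, and that with Trim AGU in 3 of 12. The call with Trim AGU was also lost with the replicate block and without the length trend (−0.61, adjusted p = 0.0951). Groups of 3 libraries are too small for a test of single outlying libraries.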

How the results depend on the processing

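Counts of members called against MC in hypoxia (20 over 5 comparisons) stayed within 1.5 times under each alternative run (19 to 24), as did the 4 against miR-125b in normoxia (3 to 4). Against miR-125b in hypoxia the count was 1, and 0 at a fold of 2 and with the replicate block, 2 without a fold threshold, with DESeq2 and without the length trend, and 3 with all libraries in 1 fit. Leaving out 1 library at a time gave 0 to 3, with 0 without any 1 miR-125b library or replicate 3 of Trim AGU, 2 without replicate 1 of Trim A or of Trim AGU and 3 without replicate 1 of Trim AG. At a fold of 2 the 11 calls of hypoxia against normoxia became 5 and the 4 interactions 2. These counts fall by construction with a higher fold threshold, and the cause of the other changes was not tested. No called log2 fold change reversed. Same-numbered libraries did not deviate together in any of 18 comparisons (correlations −0.315 to 0.147), and the block ended 2 calls, *Mylpf* with Trim AGU against miR-125b in hypoxia (0.87) and *Myh11* in the interaction of Trim AGU (−0.97), and changed no other call. Leaving out replicate 1 of both Normoxia miR-125b and Normoxia Plus A changed no call. Without the filter *Myh8* was called lower with Plus A, Trim A and Trim AG against MC and *Myh7* with Trim A. Scaling by library totals moved the median of all genes by −0.139 on the log2 scale for Trim AGU against MC in hypoxia, by −0.132 for the interaction of Trim AGU, by 0.109 for hypoxia against normoxia with Plus A and by less than 0.1 elsewhere. Depth limits *Myh7*, *Myh8* and *Myl3*, which have 81, 23 and 6 counts.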
